A study of Mus musculus with 8 samples.

Results

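The 10 genes described here, Crem, Fhl5, Sox30, Rfx2, Rfx4, Tbpl1, Taf7l, Gtf2a1l, Mybl1 and Tcfl5, encode transcription regulators that act in meiotic and haploid male germ cells. They were chosen by name for this role, with earlier results of these data known, and all 10 were found among the 19906 genes of the deposited table. RNA had been sequenced from whole testes of 4 male mice labelled Tmem232-/- and 4 labelled Tmem232+/+, all 2 months old. Mice of the first group lacked a stretch of Tmem232 with several of its exons. The deletion had been made with Cas9 and a pair of guides in fertilized C57BL/6 oocytes, so that it was not limited to germ cells. Mice labelled Tmem232+/+ were wild type, and no treatment is given for either group. How many founder lines the Tmem232-/- mice came from was not given in the sources used here. Testes were not sorted, so that each value is a sum over germ cells of all stages and somatic cells, in which fewer cells of a type and less RNA per cell cannot be told apart.

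Male germ cells pass from spermatogonia through meiosis as spermatocytes, then become round spermatids and finally elongating spermatids, and each step has its own transcription programme. MYBL1 and TCFL5 are known from spermatocytes, RFX2, RFX4 and SOX30 from late spermatocytes and round spermatids, and TBPL1, TAF7L and GTF2A1L are germ-cell forms of general transcription factors. In round spermatids CREM binds the cyclic AMP response element and, with the LIM protein FHL5 (also called ACT) as coactivator, switches on genes for packing of the sperm nucleus and for the tail. A motor protein, KIF17, carries FHL5 out of the nucleus and so limits this activity. Since the members follow each other in time, their levels in a whole testis follow both the makeup of the germ cells and the activity of each gene.

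Each library held 15428421 to 16350871 counts, and all 10 regulators passed the filter on low counts, with 198 counts as their lowest value in any library. Levels within a gene are given as counts per 1000000 counts after TMM scaling (CPM), and levels between genes as the deposited FPKM, which also divides by transcript length. Tmem232 did not check the labels, because its count covers the whole gene and not the deleted exons alone. It was higher in the libraries labelled Tmem232-/-, at 122 to 147 CPM against 106 to 111 CPM. The groups are therefore named by their labels throughout. Among 15787 genes tested with edgeR's quasi-likelihood test, 1633 (10.3%) were higher and 230 (1.46%) were lower in the libraries labelled Tmem232-/- at a Benjamini-Hochberg adjusted p under 0.05, and the median log2 fold change was -0.054. The count of lower genes depended on the libraries, at 38 to 356 on leaving out 1 library. Of 10 markers of round spermatids 9 were higher, with a summed level of 812 to 1024 CPM against 406 to 579 CPM. All 9 markers of elongating spermatids were higher (1121 to 1885 CPM against 280 to 560 CPM). None of 8 spermatocyte markers passed the test, at 1435 to 1938 CPM against 1560 to 1959 CPM. All 8 had a negative log2 fold change, with a median of -0.12. Lower markers were 1 of 6 for spermatogonia (123 to 130 CPM against 143 to 155 CPM) and 2 of 5 for peritubular cells (197 to 235 CPM against 250 to 296 CPM). Crisp1, a marker of epididymis, stood apart in 3 libraries. It reached 27.0 CPM and 9.94 CPM in replicates 1 and 3 labelled Tmem232+/+ and 5.52 CPM in replicate 1 labelled Tmem232-/-. In the other 5 libraries it was at most at 0.86 CPM. Of the other epididymis markers, Rnase10 was at 5.62 to 9.30 CPM over all libraries. Adam28 reached at most 0.57 CPM and Lcn5 at most 0.187 CPM, so that this trace rests on Crisp1. None of 6 Leydig cell markers passed the test, but 5 had a positive log2 fold change, with a median of 0.41, summing to 390 to 584 CPM against 235 to 459 CPM, and in 2 of them, Cyp17a1 and Star, the groups did not overlap. No marker of the remaining somatic lists (Sertoli, macrophage, endothelial and red blood cells) passed the test. Log2 fold changes were negative for 5 of 5 red blood cell markers (median -0.63) and 6 of 7 Sertoli markers (median -0.13). They went both ways for macrophage (median 0.09) and endothelial markers (median -0.01).

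Of the 10 regulators, 2 were higher in the libraries labelled Tmem232-/-, against 10.3% of all genes tested, and 0 were lower, against 1.46% (edgeR's quasi-likelihood test). DESeq2 called 3 higher, Crem in addition, against 11.5% of all genes, and 0 lower, against 1.43%. With the unadjusted p of edgeR under 0.05, 4 members were higher, against 14.6% of all genes, and 0 lower, against 10.5%. The members higher by the adjusted p were Fhl5 and Sox30. In 3 members, Fhl5, Sox30 and Crem, every library labelled Tmem232-/- lay above every library labelled Tmem232+/+, a pattern seen in 11.8% of genes tested. The median log2 fold change of the 10 was 0.097, beside -0.054 over all genes tested. The members thus differed widely among themselves, from a log2 fold change of 2.08 for Fhl5 to -0.06 for Taf7l.

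**Figure D1:**
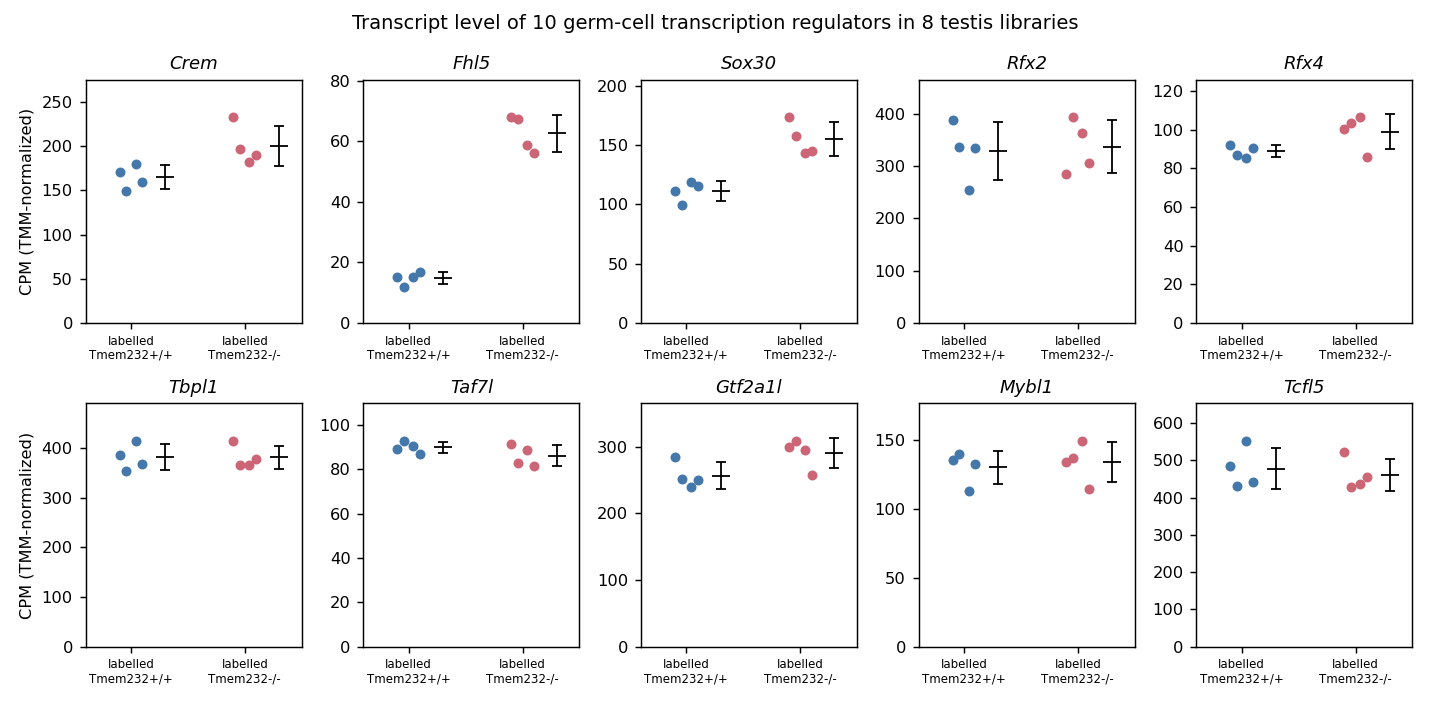
Level of each of the 10 regulators (y axis, TMM-normalized CPM from 0) in every library, 4 labelled Tmem232+/+ (blue) and 4 labelled Tmem232-/- (red), with the mean ± SD of each group as black bars. Fhl5 lay between 56.3 and 68.1 CPM in the red group and between 12.0 and 16.7 CPM in the blue, Sox30 and Crem were apart by less, and the groups overlapped in the other 7 genes.

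Fhl5, the coactivator of CREM, had the largest change of the 10. It was at 68.1, 67.5, 58.8 and 56.3 CPM in replicates 1 to 4 labelled Tmem232-/- and at 15.1, 12.0, 15.3 and 16.7 CPM in those labelled Tmem232+/+. The lowest library of the first group thus stood far above the highest of the second, and the spread within each group was small beside the gap. The level was 4.24-fold higher (95% interval 3.59 to 5.01), a log2 fold change of 2.08 ± 0.11 (SE), with an adjusted p of 1.35e-05 by edgeR. By this test Fhl5 had the smallest p of the 15787 genes, and it also ranked 1 by p in DESeq2, whereas by log2 fold change, ordered from the most higher to the most lower in the libraries labelled Tmem232-/-, it ranked 168. Leaving out any 1 library kept the log2 fold change between 1.99 and 2.15. The 10 markers of round spermatids, in which FHL5 is known to act, had log2 fold changes of 0.20 to 1.57 in the same libraries. Their median was 1.08. The 9 markers of elongating spermatids had log2 fold changes of 1.28 to 4.44, with a median of 1.67, a range that takes in the value of Fhl5. The part of either cell type in the difference of Fhl5 was not tested. In RefSeq (GRCm38.p6) Fhl5 lies on chromosome 4, from 25199907 to 25242852 on the minus strand, and a long non-coding RNA gene, LOC115489977, overlaps it. The deposited table also gives 6 genes (LOC102637947, Chchd2-ps, Spocd1, Zfp979, Gm13201 and Zfp534) spans that take in Fhl5 along with long stretches of the chromosome, although it maps them to other bands. Fhl5 counts were whole in all 8 libraries. Whether the counting used the strand was not stated, so that reads of overlapping genes could not be told apart from those of Fhl5.

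The promoter table of RefSeq holds a pair of starts for Fhl5, and both windows are shown because no other member changed as much. Each runs from 250 bases before to 50 bases after the start, 5′ to 3′ on the strand of the gene, at chr4:25242803-25243102 and chr4:25242217-25242516 (GRCm38.p6, minus strand). Capitals mark matches to the core recognised by SOX proteins (ACAAT), the half-site of the cyclic AMP response element (TGACG) and the half-site of RFX proteins (GTTGCC), each searched on both strands.
Fhl5, first start: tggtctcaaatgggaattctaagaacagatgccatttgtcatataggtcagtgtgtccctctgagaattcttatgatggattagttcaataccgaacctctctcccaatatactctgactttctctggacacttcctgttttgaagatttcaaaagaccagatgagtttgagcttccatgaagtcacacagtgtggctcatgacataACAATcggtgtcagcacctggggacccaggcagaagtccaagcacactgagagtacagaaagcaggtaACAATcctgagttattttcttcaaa
Fhl5, second start: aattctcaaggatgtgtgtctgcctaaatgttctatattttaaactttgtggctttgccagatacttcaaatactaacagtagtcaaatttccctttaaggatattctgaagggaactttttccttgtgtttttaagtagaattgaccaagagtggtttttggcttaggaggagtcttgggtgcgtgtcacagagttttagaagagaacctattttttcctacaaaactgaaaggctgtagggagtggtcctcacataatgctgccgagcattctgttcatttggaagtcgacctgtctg
The first window holds the SOX core at -43 and at 26 from the start, and no match to either half-site. The second window holds none of these letters. GC content was 42.7% and 39.3%, against a median of 52.7% over the 32851 windows of the table. The full cyclic AMP response element (TGACGTCA) stood in none of the 10 windows found for 8 of the members, and in 1.8% of all windows. These are matches of letters in a short window, and no binding was measured.

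Crem itself, the factor that FHL5 acts on, differed far less. Its levels were 233, 197, 182 and 190 CPM in replicates 1 to 4 labelled Tmem232-/- and 171, 149, 180 and 159 CPM in those labelled Tmem232+/+. The groups did not overlap, but the lowest of the first (182 CPM, replicate 3) and the highest of the second (180 CPM, replicate 3) almost touched. The log2 fold change was 0.28 ± 0.09 (SE; 95% interval 0.08 to 0.48), a fold of 1.22, with an adjusted p of 0.072 by edgeR, so that Crem did not pass the test. An exact permutation test over the 70 arrangements of 8 libraries gave a two-sided p of 0.029, the smallest this design allows. The call depended on the analysis: the adjusted p ranged from 0.0108 to 0.177 over 20 alternatives and was under 0.05 in 5 of them, among them DESeq2 (0.0214) and the fit without replicate 3 labelled Tmem232+/+ (0.0108). Crem is on chromosome 18 (3266354 to 3337773, GRCm38.p6) and overlaps the non-coding gene Gm6225. It is known to make activator and repressor forms from the same gene, and the deposited table lists 74 transcripts under one row, so that the forms were not separated.

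Set against each other per transcript length, Fhl5 came from 0.203 ± 0.024 of the level of Crem in the libraries labelled Tmem232+/+ to 0.717 ± 0.060 in those labelled Tmem232-/- (ratio of FPKM, SD, n = 4 each). Single libraries held 0.665 to 0.786 in the latter and 0.183 to 0.237 in the former (exact permutation test, two-sided p = 0.029, 0.071 after adjustment over 10 ratios). Since Crem differed far less than Fhl5, this ratio mostly repeats the difference of Fhl5. Fhl4, a LIM-only relative abundant in testis that was named after its values were seen, was at 1642 to 2015 CPM in the libraries labelled Tmem232+/+ and 1818 to 2140 CPM in the others, with 0.15 as log2 fold change (adjusted p 0.28, edgeR). It stood at 48.4 ± 7.27 times Fhl5 in FPKM in the former group and at 12.5 ± 1.03 times in the latter (exact permutation test, two-sided p = 0.029, 0.071 adjusted). Since Fhl4 differed little, this ratio mostly repeats the difference of Fhl5 and is no separate result. The other LIM-only genes measured did not pass the test. Fhl1 was at 40.0 to 43.8 CPM against 40.4 to 45.9 CPM, and Fhl2 at 9.67 to 13.2 CPM against 10.6 to 17.9 CPM.

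Creb1 and Atf1, the widely expressed relatives of CREM, did not pass the test either. Creb1 was at 35.3 to 45.2 CPM in the libraries labelled Tmem232-/- and at 43.3 to 50.8 CPM in the others, at -0.16 on the log2 scale (adjusted p 0.28, edgeR). Atf1 was at 126 to 139 CPM and 129 to 133 CPM. Crem stood at 15.0 ± 1.64 times Creb1 in FPKM in the libraries labelled Tmem232-/- and at 10.9 ± 0.46 times in the others (exact permutation test, two-sided p = 0.029, 0.071 after adjustment over 10 ratios).

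Kif17, the motor that exports FHL5 from the nucleus, was at 123, 134, 106 and 101 CPM in replicates 1 to 4 labelled Tmem232-/- and at 51.7, 48.9, 58.9 and 60.0 CPM in those labelled Tmem232+/+. Its log2 fold change was 1.08 (adjusted p 4.78e-05, edgeR). Creb3l4, a membrane-bound CREB-related factor of spermatids, was at 167, 128, 113 and 140 CPM and at 54.9, 45.3, 78.6 and 59.1 CPM, a log2 fold change of 1.20 (adjusted p 0.000359). In both genes, as in Fhl5, the groups did not overlap.

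Genes known to need CREM in spermatids were all higher in the libraries labelled Tmem232-/-. This held for 9 of 9 tested, beside 10.3% of all genes, with log2 fold changes of 1.08 to 4.44, a median of 1.67 and no overlap between the groups. Ace, whose testis form is made in spermatids, had a log2 fold change of 1.08, and Odf1, a protein of the outer dense fibres, of 1.33. Smcp, of the mitochondrial sheath, and Gapdhs, the glycolytic enzyme of sperm, had 1.38 and 1.49, and Akap4, of the fibrous sheath, had 1.67. The transition protein genes Tnp1 and Tnp2 had 3.54 and 3.86, and the protamine genes Prm1 and Prm2, which pack sperm DNA, 4.40 and 4.44. Prm1, for example, was at 122, 85.3, 44.2 and 132 CPM in replicates 1 to 4 labelled Tmem232-/- and at 4.86, 1.63, 7.53 and 4.17 CPM in those labelled Tmem232+/+. All of these genes except Ace also stand in the list of elongating spermatid markers, whose summed level moved in the same libraries. The part of cell makeup in these values was not tested.

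**Figure D2:**
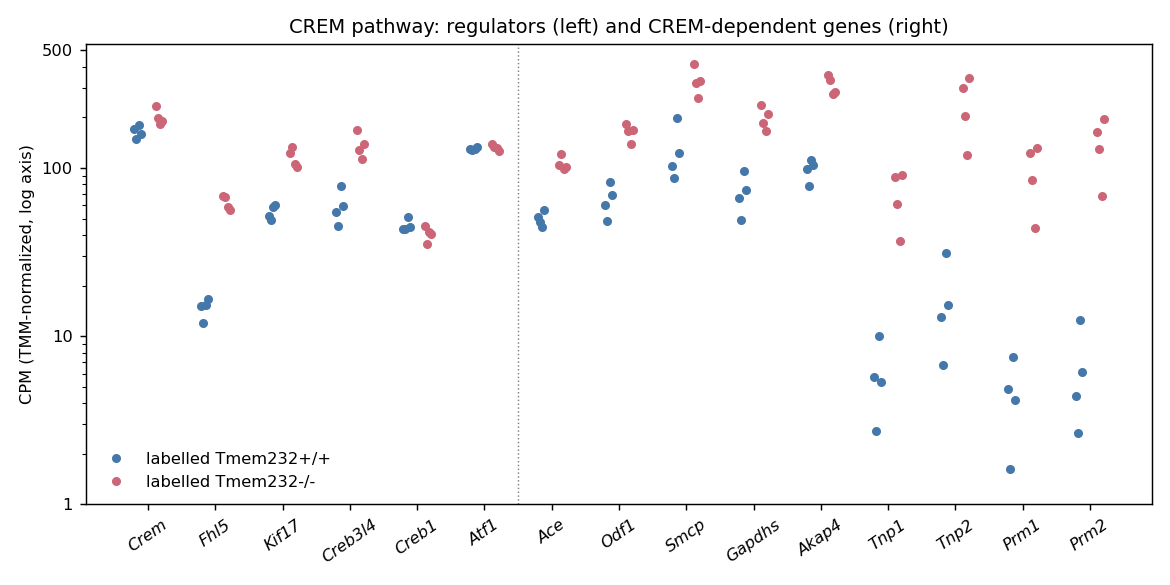
CPM on a log axis (y) of Crem, its coactivator Fhl5, Kif17, Creb3l4, Creb1 and Atf1 (left of the dotted line) and of 9 genes known to need CREM (right), 1 point per library, 4 labelled Tmem232+/+ (blue) and 4 labelled Tmem232-/- (red). Creb1 and Atf1 overlap between groups, Crem is just apart, and Fhl5 and the genes on the right are apart with log2 fold changes of 1.08 to 4.44.

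Sox30, an SRY-box factor that round spermatid genes depend on, was the second member to pass the test. It was at 174, 158, 143 and 145 CPM in replicates 1 to 4 labelled Tmem232-/- and at 111, 99.4, 119 and 115 CPM in those labelled Tmem232+/+. No library of the first group fell below any of the second. The log2 fold change was 0.48 ± 0.08 (SE; 95% interval 0.30 to 0.66), a fold of 1.40, with an adjusted p of 0.0021 by edgeR, and the adjusted p lay between 1.36e-06 and 0.0161 over 20 alternatives. Round spermatid markers, at 812 to 1024 CPM in sum against 406 to 579 CPM, moved in the same direction, and their part in the difference of Sox30 was not tested either. Sox30 is on chromosome 11 (45979069 to 46017992, GRCm38.p6), with no other RefSeq gene over it. The deposited table gives Trim7 a span that takes in Sox30 along with a long stretch of the chromosome. Its promoter window at chr11:45980060-45980359 (GRCm38.p6, plus strand) is shown with the same capitals as for Fhl5, since both hold the SOX core and both genes were higher.
Sox30: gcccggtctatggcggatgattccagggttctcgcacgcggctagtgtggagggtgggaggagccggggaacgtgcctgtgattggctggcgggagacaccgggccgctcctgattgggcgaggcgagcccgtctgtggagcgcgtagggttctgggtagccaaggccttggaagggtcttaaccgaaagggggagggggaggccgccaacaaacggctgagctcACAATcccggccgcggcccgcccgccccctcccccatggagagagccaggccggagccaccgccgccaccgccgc
One SOX core lies at -25 from the start. The core was present in windows of 4 members (Fhl5, Sox30, Rfx4 and Taf7l), of which Rfx4 and Taf7l did not pass the test, and in 31.0% of all windows. GC content, in contrast to Fhl5, was above the median of all windows.

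Of 3 other SOX genes chosen for comparison, Sox5 and Sox6 were also higher, beside 10.3% of all genes tested. Sox9, a factor of Sertoli cells, did not pass the test. Sox5, which has a short form in round spermatids, was at 114, 97.1, 83.9 and 83.3 CPM against 43.3, 36.4, 55.3 and 47.5 CPM, a log2 fold change of 1.05 (adjusted p 0.000263, edgeR). Sox6 was at 98.4, 115, 114 and 85.6 CPM against 86.7, 75.8, 66.6 and 82.2 CPM, a log2 fold change of 0.41 with overlapping groups (adjusted p 0.032). Its adjusted p ranged from 0.00308 to 0.108 over 20 alternatives and was under 0.05 in 10 of them.

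The RFX members did not pass the test. Rfx2, a factor of ciliary and spermatid genes, was at 284, 394, 363 and 306 CPM in replicates 1 to 4 labelled Tmem232-/- and at 388, 337, 253 and 335 CPM in those labelled Tmem232+/+. Each group had both high and low libraries, and Rfx2 varied more within a genotype than any other member, with a coefficient of variation of 15.0% and 17.0%. The log2 fold change was 0.04 with a 95% interval of -0.26 to 0.33 (adjusted p 0.89, edgeR). As a fold, the interval ran from 0.835 to 1.26. Rfx4, known from testis and brain, was at 100, 103, 107 and 85.6 CPM and at 92.1, 87.1, 85.5 and 90.6 CPM, a log2 fold change of 0.16 (95% interval -0.01 to 0.32, adjusted p 0.23). Its replicate 4 labelled Tmem232-/- lay within the other group, and without it the adjusted p was 0.0327. Rfx4 lies on chromosome 10 (84756036 to 84906538, GRCm38.p6) and overlaps the non-coding gene Gm40728.

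Of 5 RFX relatives tested, 2 (Rfx1 and Rfx3) were higher, beside 10.3% of all genes tested. The other 3 did not pass the test (Rfx5 at -0.13, Rfx7 at -0.09 and Rfx8 at -0.15 on the log2 scale). The median log2 fold change of the 5 was -0.09. Rfx1 was at 69.2, 73.6, 55.1 and 56.5 CPM against 42.6, 38.2, 40.9 and 41.5 CPM, a log2 fold change of 0.64 (adjusted p 0.00098, edgeR). Rfx3, which like RFX2 is known from ciliated cells, was at 30.7, 28.0, 25.4 and 21.4 CPM against 16.7, 16.5, 15.8 and 19.1 CPM, a log2 fold change of 0.63 (adjusted p 0.0033, 0.0629 in 1 of 20 alternatives). Per transcript length, Rfx2 stood at 36.0 ± 6.65 times Rfx3 in the libraries labelled Tmem232-/- and at 54.4 ± 9.09 times in the others (exact permutation test, two-sided p = 0.029, 0.071 after adjustment over 10 ratios). Against Rfx1 it stood at 7.05 ± 1.46 and 10.5 ± 1.77 times (exact permutation test, two-sided p = 0.057, 0.114 adjusted). In every library Rfx2 was thus above Rfx1 and Rfx3 per length. Since Rfx2 differed little between the groups, the differences in these ratios mostly repeat those of Rfx3 and Rfx1.

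Rfx2 lies on chromosome 17 (56775897 to 56831008, GRCm38.p6), the chromosome of Tmem232, and overlaps the non-coding gene Gm41604. Its promoter window at chr17:56830959-56831258 (minus strand) is shown because it holds the half-site of its own family.
Rfx2: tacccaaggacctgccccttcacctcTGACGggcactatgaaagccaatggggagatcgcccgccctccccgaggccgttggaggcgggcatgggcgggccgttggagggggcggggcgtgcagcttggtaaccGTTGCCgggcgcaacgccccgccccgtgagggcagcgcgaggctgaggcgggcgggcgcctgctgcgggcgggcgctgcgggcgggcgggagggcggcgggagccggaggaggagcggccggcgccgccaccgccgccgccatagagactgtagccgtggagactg
It holds 1 match to the half-site of the cyclic AMP response element and 1 to the RFX half-site. The RFX half-site was present in windows of 2 members, Rfx2 and Gtf2a1l, and in 12.5% of all windows. The half-site TGACG stood in windows of Rfx2 and Rfx4 and in 20.8% of all windows.

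The germ-cell forms of general transcription factors did not pass the test, and of them Tbpl1 and Taf7l were close between the groups. Tbpl1, related to the TATA-binding protein, was at 414, 367, 365 and 378 CPM in replicates 1 to 4 labelled Tmem232-/- and at 387, 354, 415 and 369 CPM in those labelled Tmem232+/+. Its mean was 381 CPM in both groups, with a 95% interval of the log2 fold change of -0.16 to 0.16 (adjusted p 0.997, edgeR). Slc2a12, which overlaps it on chromosome 10 (22703877 to 22732666, GRCm38.p6), was at 6.33 to 8.47 CPM in any library. Taf7l, the X-linked relative of the TFIID subunit TAF7, was at 91.7, 82.9, 88.9 and 81.5 CPM against 89.3, 93.1, 90.5 and 87.1 CPM, a log2 fold change of -0.06 with a 95% interval of -0.20 to 0.08 (adjusted p 0.57). Taf7l (chromosome X, 134460116 to 134476505) was the steadiest member, with a coefficient of variation of 5.6% and 2.8%.

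Gtf2a1l, the germ-cell form of a TFIIA subunit (chromosome 17, 88665493 to 88715157, GRCm38.p6), was at 300, 309, 295 and 257 CPM against 285, 252, 239 and 250 CPM. In each group 1 library reached into the range of the other, namely replicate 4 labelled Tmem232-/- and replicate 1 labelled Tmem232+/+. The log2 fold change was 0.18 (95% interval 0.001 to 0.35) with an adjusted p of 0.20 by edgeR, and without replicate 4 labelled Tmem232-/- the adjusted p was 0.0467. The somatic counterparts did not pass the test, with log2 fold changes of -0.05 for Tbp, -0.08 for Taf7 and -0.13 for Gtf2a1.

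In FPKM, Tbpl1 stood at 1.08 ± 0.02 times Tbp in the libraries labelled Tmem232-/- and at 1.04 ± 0.04 times in the others (exact permutation test, two-sided p = 0.257). Taf7l stood at 3.48 ± 0.38 and 3.41 ± 0.11 times Taf7 (exact permutation test, p = 0.8), and Gtf2a1l at 11.3 ± 2.39 and 9.02 ± 1.42 times Gtf2a1 (exact permutation test, p = 0.143). The testis thus held about equal levels of Tbpl1 and Tbp per length, but several times more of Taf7l and Gtf2a1l than of their counterparts, in both groups.

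Mybl1 and Tcfl5, the members known best from spermatocytes, did not pass the test. Mybl1, a MYB factor that drives meiotic genes and piRNA precursors in pachytene cells, was at 134, 137, 150 and 115 CPM in replicates 1 to 4 labelled Tmem232-/- and at 136, 140, 113 and 133 CPM in those labelled Tmem232+/+. Both groups covered nearly the same range, and the log2 fold change was 0.04 with a 95% interval of -0.17 to 0.25 (adjusted p 0.83, edgeR). Mybl1 lies on chromosome 1 (9667407 to 9700439, GRCm38.p6), and the core that MYB proteins recognise (AACNGNC) stood in promoter windows of Rfx2, Rfx4 and Tcfl5 and in 32.8% of all windows. Its relative Mybl2 was at 20.3 to 25.5 CPM against 17.9 to 25.3 CPM, and Myb was at most at 0.363 CPM and was not tested. Tcfl5, a bHLH factor, was at 523, 428, 437 and 457 CPM against 486, 431, 553 and 442 CPM, a log2 fold change of -0.05 with a 95% interval of -0.26 to 0.16 (adjusted p 0.77). Its counts were not whole in any library, and Col9a3 overlaps it on chromosome 2 (180621956 to 180642691, GRCm38.p6). Col9a3 was at 1.93 to 4.79 CPM, far below Tcfl5.

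**Figure D3:**
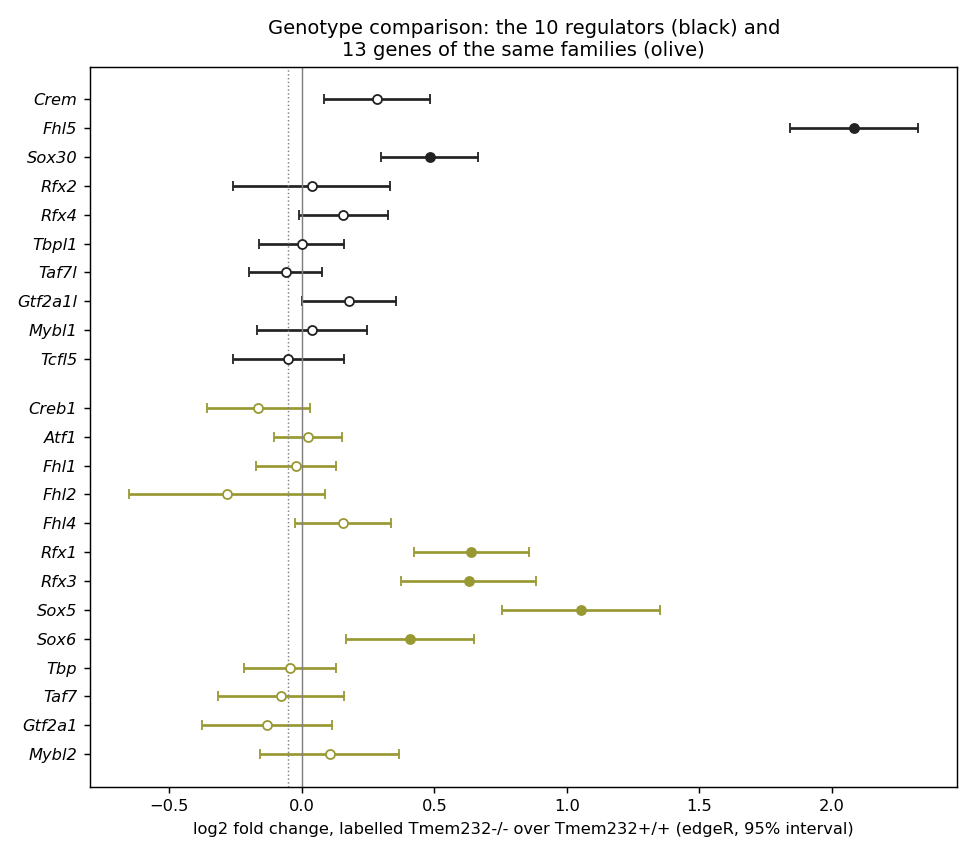
Log2 fold change (x axis, libraries labelled Tmem232-/- over those labelled Tmem232+/+, edgeR) with its 95% interval for the 10 regulators (black) and 13 genes of the same families (olive). Filled points had an adjusted p under 0.05, the solid line marks 0 and the dotted line the median of all genes (-0.054). Fhl5 lies apart at 2.08, and Sox30, Rfx1, Rfx3, Sox5 and Sox6 are the other filled points.

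Together, the lists of the same families (CREB, FHL, RFX, TFIID and TFIIA, MYB and SOX) held 24 further genes with enough counts to test. These lists were chosen with earlier results of these data known and do not cover the families in full. Creb3l4, a CREB-related factor, was counted among the other regulators instead. Of the 24 genes, 4 were higher (Rfx1, Rfx3, Sox5 and Sox6), beside 10.3% of all genes tested, and 0 lower, beside 1.46%. Their median log2 fold change was -0.08. Among 21 other regulators of spermatogenesis 4 were higher, 3 lower and 14 did not pass the test, beside the same 10.3% and 1.46%, with a median of -0.01. Beside Kif17 and Creb3l4, Hsf2, a heat shock factor of germ cells, was at 50.1 to 61.9 CPM against 36.9 to 41.2 CPM (log2 fold change 0.50, adjusted p 0.0012, edgeR). Nr6a1, an orphan nuclear receptor of spermatids, had a log2 fold change of 0.48 (adjusted p 0.028).

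The 3 lower genes are known from earlier germ cells. Stra8, needed for entry into meiosis, was at 25.0 to 30.1 CPM in the libraries labelled Tmem232-/- and at 32.0 to 40.9 CPM in the others (log2 fold change -0.36, adjusted p 0.038, edgeR). Scml2, a Polycomb protein of the germ line, was at 62.1 to 69.3 CPM and 75.9 to 85.7 CPM (-0.26, adjusted p 0.030). Sohlh1, a factor of spermatogonia, was at 3.29 to 4.98 CPM and 5.44 to 6.02 CPM (-0.55, adjusted p 0.035). The adjusted p of these 3 and of Nr6a1 passed 0.05 in some alternatives, namely 8 of 20 for Stra8 (up to 0.265), 11 of 20 for Scml2 (up to 0.133), 11 of 20 for Sohlh1 (up to 0.199) and 6 of 20 for Nr6a1 (up to 0.0898). Spermatogonia markers summed to 123 to 130 CPM and 143 to 155 CPM in the same libraries. The log2 fold change was negative for 5 of the 6 markers, with a median of -0.30. Uchl1 passed the test, at 61.2 against 77.9 CPM in the mean (-0.35), and was most of the difference in the sum. The others did not pass it, with Zbtb16 at -0.35, Lin28a at -0.26, Nanos3 at -0.43, Kit at -0.04 and Gfra1 at 0.42. The part of these cells in the lower genes was not tested.

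A wider set gives the background for regulators. Of 1200 genes annotated in the deposited table as transcription factors, 82 (6.8%) were higher and 18 (1.5%) lower, with a median log2 fold change of -0.07. Of 910 annotated cofactors, 45 (4.9%) were higher and 18 (2.0%) lower. Over all genes tested, 10.3% were higher and 1.46% lower. The members fall among the factors (Crem, Sox30, Rfx2, Rfx4, Mybl1 and Tcfl5) and the cofactors (Fhl5, Tbpl1, Taf7l and Gtf2a1l), so that the changed members came from both.

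Per transcript length the members spanned a wide range. In the libraries labelled Tmem232+/+ the order of mean FPKM was Tcfl5 (238), Gtf2a1l (180), Tbpl1 (136), Rfx2 (105), Crem (75.5), Taf7l (54.7), Sox30 (39.9), Rfx4 (28.9), Mybl1 (27.5) and Fhl5 (15.4). Of neighbours in this order, Rfx2 and Crem overlapped in their libraries, as did Rfx4 and Mybl1, and the others did not. In the libraries labelled Tmem232-/- Fhl5 was at 64.1 ± 5.42 FPKM against 15.4 ± 2.05 FPKM, and moved from rank 10 to rank 6. There it overlapped Sox30 (54.3 FPKM), which in turn overlapped Taf7l (51.0 FPKM). Ranks 1 to 5 held the same genes in both groups. Fhl5 stood above 70.3% of the genes in the table in the libraries labelled Tmem232+/+ and above 90.9% in those labelled Tmem232-/-, and Tcfl5 above 98.2% in both.

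**Figure D4:**
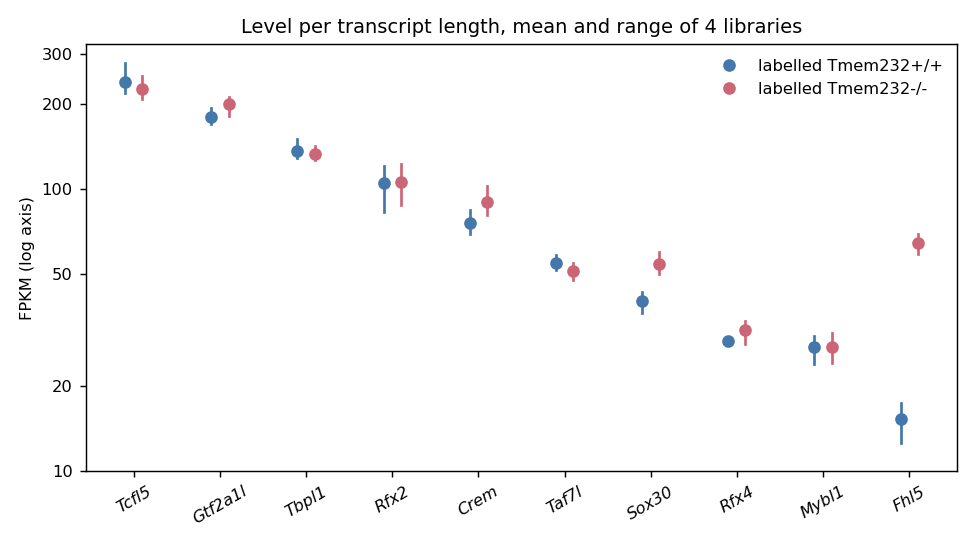
Mean FPKM (points, log axis) and range over 4 libraries (lines) of the 10 regulators, ordered by their level in the libraries labelled Tmem232+/+ (blue), with those labelled Tmem232-/- in red. Fhl5 is last in blue at 15.4 FPKM and at 64.1 FPKM in red, above Sox30 and Taf7l.

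Within a genotype the members shared some of their highs and lows between libraries. Replicate 1 labelled Tmem232-/- was the highest of its group for 6 members and replicate 4 the lowest for 5. Replicate 3 labelled Tmem232+/+ was the highest of its group for 4 members (Crem, Sox30, Tbpl1 and Tcfl5) and the lowest for 4 others (Rfx2, Rfx4, Gtf2a1l and Mybl1). In replicate 1 labelled Tmem232-/- the same Crem, Sox30, Tbpl1 and Tcfl5 were highest, and Rfx2 lowest. On the log2 scale Rfx2 was at -0.36 and Mybl1 at -0.20 from the mean of their genotype in replicate 3 labelled Tmem232+/+, where Tcfl5 was at 0.22 and Crem at 0.13. In replicate 1 labelled Tmem232-/-, Crem was at 0.22 and Rfx2 at -0.23. Over all genes tested, the deviations of both libraries from their genotype means correlated at 0.5. This was the highest value for any library of one genotype with any of the other. The pattern was thus not particular to the members. Both libraries held epididymal Crisp1, at 9.94 CPM and 5.52 CPM, and their deposited FPKM summed to 547098 and 523413, against 489642 to 529822 in the other 6. Replicate 1 labelled Tmem232+/+, with the most Crisp1 (27.0 CPM), did not share the pattern: Rfx2 was highest of its group there, at 0.26, with Crem at 0.06 and Tcfl5 at 0.03, and its FPKM summed to 506287. The part of dissection or cell makeup in this pattern was not tested. Without both libraries, Fhl5, Sox30 and Crem had an adjusted p under 0.05 (0.0305 for Crem, edgeR), and without replicate 1 labelled Tmem232+/+ as well, Crem had 0.0391.

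**Figure D5:**
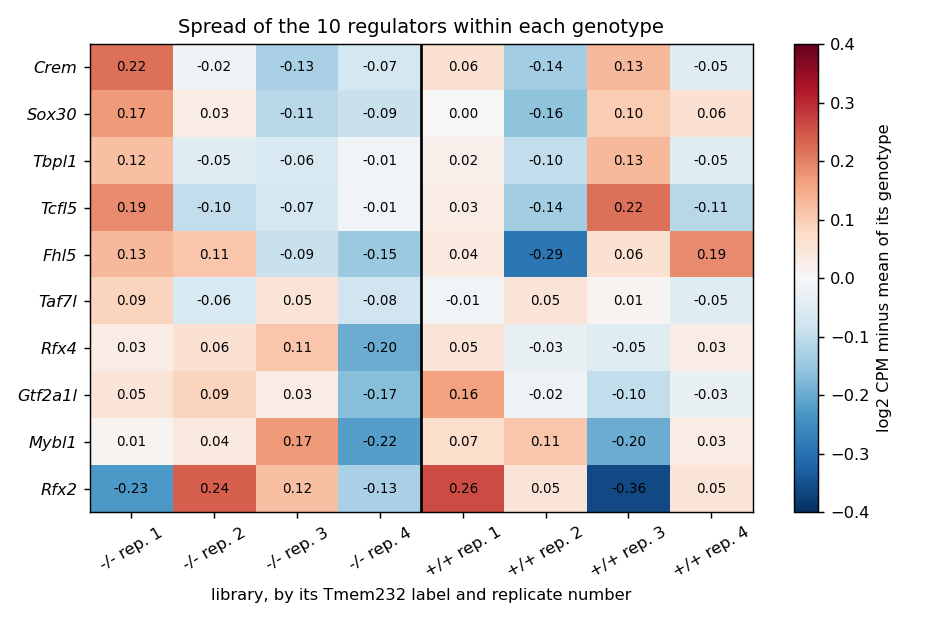
Log2 CPM of each regulator minus the mean of its genotype (colour and number) in the 4 libraries labelled Tmem232-/- (left of the line) and the 4 labelled Tmem232+/+ (right). Replicate 1 on the left and replicate 3 on the right are both high for Crem, Sox30, Tbpl1 and Tcfl5 and low for Rfx2 (-0.23 and -0.36).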

How the data were processed

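Total RNA of 8 whole testes, 4 per genotype, had been sequenced as TruSeq cDNA libraries. The submitters' processing notes name HISAT, Bowtie2, StringTie, featureCounts, DESeq2 and GRCm38.p6, and whether strand was used in counting is not given in the sources used here. The authors deposited, per gene and library, expected counts (not whole for 10.7% to 11.2% of genes) and FPKM. The deposited group averages and the authors' own log2 fold changes, p-values and q-values were not used. Expected counts were rounded, scaled by TMM, filtered with filterByExpr and tested with edgeR 4.0.16 (quasi-likelihood, no covariate) over 15787 genes, with Benjamini-Hochberg adjustment, and the fit was tested on simulated data. Single levels were compared by exact permutation over 70 arrangements, two-sided, where 0.029 is the smallest p. Beyond genotype, number and age, the labels do not describe the replicates, and the authors' methods name 4 mice per genotype. Alternatives used DESeq2 1.42.0, limma 3.58.1, other scalings, filters and pseudocounts, and left out libraries. The members and lists were chosen with earlier results of these data known. All members are named. In the lists of families, other regulators and genes that need CREM, every gene with an adjusted p under 0.05 is named. Nearest counterparts of members and some further genes are named although they did not pass the test. Cell type markers are mostly given as counts and sums, and not all that passed are named. Motifs were searched as exact letters on both strands of RefSeq promoter windows (GRCm38.p6).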

Additional observations from a re-analysis of the deposited data

Results flagged for a closer look

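In 1 of 76 groups of 4 libraries, where chance gives about 3.8, a library stood far from the others of its genotype by Dixon's ratio of gap to range. Scml2 was at 85.68 CPM in replicate 2 labelled Tmem232+/+, against 75.9 to 76.5 CPM in the other 3, with a ratio of 0.937.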

How the results depend on the processing

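Fhl5 and Sox30 were higher at an adjusted p under 0.05 in 20 of 20 alternatives. The number of members higher was 4 without replicate 4 labelled Tmem232-/- (2 to 3 on leaving out any other library) and 1 where a fold of 2 was also required, which is Fhl5, and 0 members were lower in any alternative. The count of genes lower was 131 with DESeq2 size factors, 415 with library size alone and 71 with no filter on low counts. It was 466 and 448 from FPKM with pseudocounts of 1 and 0.1, and 38 to 356 on leaving out 1 library. Without the 2 and 3 libraries that stood apart in Crisp1, sets chosen after seeing the data, it was 74 and 32. The median of all genes moved between -0.087 and 0.0. Same-numbered libraries did not deviate together (correlations of -0.46 to 0.16), so that no pairing by number was seen. Whether they shared a litter or a preparation day is not given in the labels and was not tested. With a replicate block 1317 genes were higher and 28 lower, 2 members higher and 0 lower, and Tbpl1 was at 1.63e-05. The cause of these shifts was not tested.

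Genes with a log2 fold change near 0 changed sign in some alternatives. Tbpl1 was at 0.0229 with DESeq2 and at 0.0229 with its size factors, 0.0414 with no filter, 0.0053 with at least 10 counts in every library, -0.0426 to 0.0940 on leaving out 1 library, and 0.0339 and 0.0597 without the 2 and 3 libraries. On leaving out 1 library, Rfx2 was at -0.0479 to 0.169, Mybl1 at -0.0202 to 0.120, Tcfl5 at -0.117 to 0.0773, Fhl1 at -0.0459 to 0.0259, Tbp at -0.0900 to 0.0703 and Taf7 at -0.181 to 0.0147. Without the 3 libraries Mybl1 was at -0.00207, Tcfl5 at 0.0394 and Tbp at 0.0211, and without the 2, Tbp was at 0.00698 and Fhl1 at 0.0256. Atf1 was at -0.0115 with library size alone and at -0.0113 and -0.0115 from FPKM. Fhl1 was at 0.000505 with DESeq2, 0.000393 with its size factors and 0.0196 with no filter.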
